A study of Mus musculus with 8 samples.

Results

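Genes that encode the proteins of the cytosolic ribosome were examined in poly(A) RNA-seq libraries of mouse embryonic fibroblasts (MEFs). The genes were chosen by name. A name had to be Rpl or Rps followed by a number and at most a short suffix, or to be Rpsa, Rplp0, Rplp1 or Rplp2, and S6 kinases and names ending in -ps were left out. The rule found 81 of the 12528 listed genes, 48 with large-subunit names and 33 with small-subunit names. All 81 passed the filter on low values, which asked for at least 1 CPM (read counts scaled to a common library size) in at least 2 libraries and left 12494 genes to test. GENCODE M21 annotates 79 of them as protein-coding and the other 2, Rps3a2 and Rps3a3, as processed pseudogenes. Rps27 was not analysed here.

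The MEFs came from WT and Cav1KO littermate mice and had been immortalized. Cav1KO cells lack caveolin-1, the coat protein of plasma membrane caveolae. Cells of both genotypes were seeded at low confluence on stiff or on soft polyacrylamide hydrogels coated with fibronectin, and RNA was taken after 24 h. Each of the 4 combinations of genotype and gel held 2 libraries, and no source used here says that the 2 came from separate cultures, so p-values measure only the spread between these libraries. The number of immortalized lines behind each genotype is not given in the sources used here, so line and genotype cannot be told apart. Clonal origin was not stated either.

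A ribosome is built from ribosomal RNA and about equal numbers of each ribosomal protein, most of which sit in either the large or the small subunit. The genes are among the most strongly transcribed of any growing cell. Most of their mRNAs begin with a terminal oligopyrimidine (TOP) tract, a C followed by a run of C and U, through which mTOR and the RNA-binding protein LARP1 control their translation and stability. The short, abundant mRNAs have also been copied back into the genome many times, which left processed pseudogenes that differ from the parent gene at few bases.

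Some of these genes have a run of pyrimidines in the DNA near the annotated start. The runs did not have to begin with a C at the start itself, as a TOP tract does. In Rpl18 and Rpl22l1 the base at the annotated start is a G. The 30-base windows printed here hold 15 bases before and 15 from the RefSeq start (GRCm38.p6). They are given for 5 genes with a run of 10 pyrimidines near the start and for Rpl7l1. The longest run of Rpl7l1 from 10 bases before to 25 bases after the start was 2. Capitals mark the longest run of C and T in the window.
Rpl18 (chr7:45718056-45718085, plus strand): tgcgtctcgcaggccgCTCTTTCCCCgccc
Rpl38 (chr11:114668565-114668594, plus strand): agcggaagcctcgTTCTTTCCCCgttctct
Rplp2 (chr7:141447636-141447665, plus strand): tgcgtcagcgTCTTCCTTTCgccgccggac
Rps6 (chr4:86857353-86857382, minus strand): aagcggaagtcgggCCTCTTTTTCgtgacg
Rpl22l1 (chr3:28805493-28805522, plus strand): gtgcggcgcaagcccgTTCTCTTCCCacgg
Rpl7l1 (chr17:46782642-46782671, minus strand): gtgaggCTgcgcaagcgcagtagctgaagc
RefSeq held a window for 59 of the 81 genes. A run of at least 8 pyrimidines was present in 22 of them, 37.3%, against 13.0% of all 32851 windows of that length. The motif CTTTCC was found on either strand of the 300-base promoter window in 29, 49.2%, against 26.6% of all windows. RefSeq and GENCODE starts differed for some members, for Rplp2 by 61, Rpl22l1 by 72, Rpl38 by 46 and Rps6 by 45 bases, so a window need not hold the start that these cells used.

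Cav1 was read at 950 and 1079 CPM in WT cells on stiff and at 1122 and 1157 CPM in WT cells on soft gels. In the 4 Cav1KO libraries it lay between 0.0523 and 0.411 CPM, so the targeted gene followed the labels. Total reads recovered from the deposited values ranged from 17089836 to 19944952 per library, and 100% of values were whole multiples of 1 read within 0.01 read. Of 7 fibroblast markers 6 were listed, with Thy1 not listed, and their summed level was 8419 to 8656 CPM in WT stiff, 10272 to 10560 in WT soft, 4099 to 5181 in Cav1KO stiff and 12367 to 12417 in Cav1KO soft. No epithelial, endothelial or muscle marker was listed, and Cd68, the only listed one of 6 leukocyte markers, stayed between 0.552 and 4.55 CPM.

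Levels of the ribosomal protein genes spanned a wide range although their proteins enter the ribosome in about equal numbers. Per kb of transcript, the mean level over the 8 libraries was highest for Rplp1 at 7148 CPM per kb, Rplp0 at 4676 and Rpl8 at 3690. Rplp0 and Rplp1 encode the acidic stalk that binds elongation factors, and Rpl8 encodes a core protein of the large subunit. The lowest were Rpl5 at 22.5 CPM per kb, Rpl12 at 34.6 and Rpl27a at 102. Each of these last 3 had a listed near-identical copy that took most of the signal. Gm15500, a copy of Rpl5, averaged 1410 CPM against 46.0 for Rpl5 itself, Gm10275 averaged 1966 CPM against 42.9 for Rpl12, and Gm7536 averaged 1139 CPM against 118 for Rpl27a.

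Copies matter for the whole family. The median transcript was 751 nucleotides long against 2732 for all listed genes, and the median member shared 57.5% of its 60-base windows, the read length, exactly with another annotated gene. At least 50% of windows were shared by 49 members. A window was shared by 51 members with at least 1 of 89 listed genes outside the name rule, called copies here. Many of these are processed pseudogenes, but others are annotated as protein-coding, such as Fam69a for Rpl5 and Tlcd1 for Rpl23a. How each came to share sequence was not tested. Rps3a1, Rps3a2 and Rps3a3, all members, shared windows with each other. A read from a shared window cannot be placed by its sequence, and the deposited reads were assigned by the authors' pipeline. Results are therefore also given with each member summed with the listed copies that shared at least 10% of its windows, a setting chosen after the data were seen. They are given as well for the 12 members that shared under 20% of their windows (among them Rps3, Rpl8, Rps20, Rpl7l1, Rpl4, Rpl39, Rpl32, Rpl22 and Rps27l). These percentages depend on the annotated transcript used, which was 3706 nucleotides long for Rps20 and 1613 for Rps24, also among the 12. In a long transcript a low percent can still leave a long shared stretch, so the 12 are not free of copies.

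The summed level of the 81 genes was lowest in the Cav1KO soft libraries. The sums were 91439 and 105123 CPM in WT stiff, 100462 and 93881 in WT soft, 88961 and 102017 in Cav1KO stiff, and 74011 and 75432 in Cav1KO soft. The other 3 groups overlapped with each other, and both Cav1KO soft libraries lay below every other library. The Cav1KO soft mean was 0.769 times the WT soft mean, and the Cav1KO stiff mean was 1.28 times the Cav1KO soft mean. With copies added, these ratios were 0.778 and 1.29. As a share of the library the genes took 7.91% and 8.01% in Cav1KO soft against 8.82% to 10.1% in the other 6 libraries. The mean share was 7.96% in Cav1KO soft and 9.56% in WT soft, a smaller gap than that of the summed CPM. The deposited values of all genes summed to 936127 and 942300 CPM in the Cav1KO soft libraries. In each of the other 6 they summed to at least 998731 CPM. No test was run on the sums. The fibroblast markers moved between the groups as well, with their highest sum in Cav1KO soft and their lowest in Cav1KO stiff, and their part in these sums was not tested. CPM are relative to the other mRNAs of a library. In bulk RNA less of these mRNAs per cell, fewer cells that express them strongly and more of the other mRNAs cannot be told apart.

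**Figure D1:**
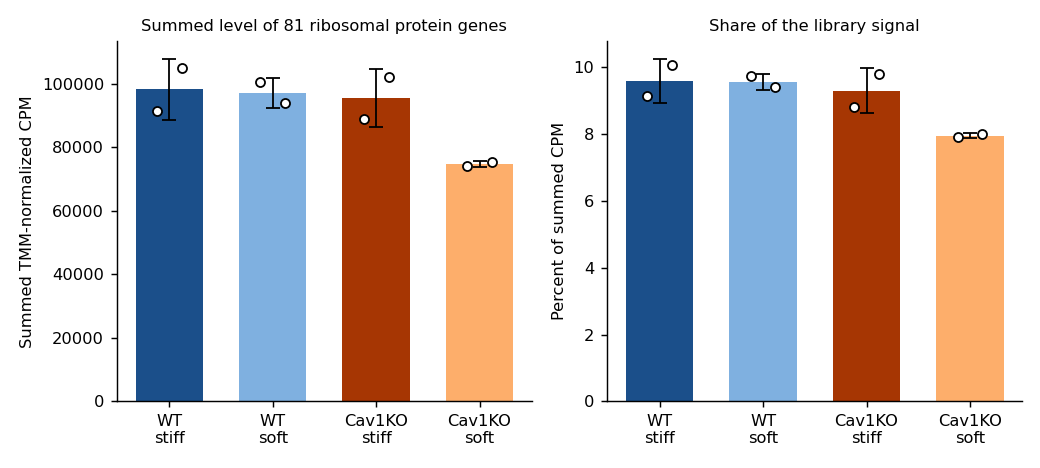
Summed TMM-normalized CPM of the 81 genes (left, y axis) and their percent of the summed CPM of the library (right, y axis) in the 4 groups (x axis). Bars are means of 2 libraries, error bars the SD, and circles the single libraries. Both Cav1KO soft libraries, at 74011 and 75432 CPM, sit below the other 6.

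Members also moved together between libraries of a group. In WT stiff 80 of 81 genes were higher in the second library than in the first, with a median difference of 0.20 on the log2 scale, where the median over all genes was 0.02. In Cav1KO stiff 74 were higher, with a median difference of 0.19. In WT soft 68 were lower in the second library, with a median difference of -0.08, and in Cav1KO soft 52 were higher, with a median difference of 0.03. A shift of the whole family by about 0.2 was thus seen between libraries of the same group on stiff gels.

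Stiffness was compared first within Cav1KO cells, where the question was whether cells on stiff and soft gels differ without caveolin-1. On stiff gels 45 of 81 genes were higher and none was lower, where 27.9% of all tested genes were called higher and 28.2% lower (limma, adjusted p under 0.05, all genes tested together). At an unadjusted p under 0.05 the fit held 58 higher and 1 lower, edgeR on the recovered reads called 51 and 0, and DESeq2 53 and 2. The call fell on 25 of 48 large-subunit and 20 of 33 small-subunit genes. The median difference was 0.33 on the log2(CPM + 1) scale, against -0.02 for all genes. Values of the libraries did not overlap for 64 genes that were higher and 5 that were lower on stiff, against 38.3% and 40.2% of all genes. Under quantile normalization the split was 38 higher and 8 lower, and the median 0.14. Without the first Cav1KO soft library 27 genes were called higher, and without the second Cav1KO stiff library 30.

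Genes of comparable abundance or length set this number in context. Of 225 genes outside the family with a mean of at least 500 CPM, copies left out, 126 were higher and 50 lower on stiff in Cav1KO cells, with a median of 0.37. Of 1174 other genes with transcripts of at most 1000 nucleotides, copies left out, 417 were higher and 187 lower, with a median of 0.15. Whether either set differs from the ribosomal protein genes was not tested.

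Rpl27, a large-subunit protein, had the largest rise on stiff gels in Cav1KO cells. It was read at 215 and 226 CPM on stiff and at 76.9 and 76.7 CPM on soft, a difference of 1.51 ± 0.07 (SE; limma, adjusted p = 7.55e-06). Its copy Rpl27-ps3 held 1073 and 1360.4 CPM on stiff and 802 and 771 on soft, and the 2 rows summed gave 0.73 (limma, adjusted p = 0.00139). Rps27l, a paralog of Rps27 known as a p53 target, was read at 232 and 272 CPM on stiff and at 124 and 127 CPM on soft, a difference of 0.99 ± 0.10 (limma, adjusted p = 7.55e-05).

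Rpl8 was read at 4007 and 4589 CPM on stiff and at 2499.6 and 2582 CPM on soft in Cav1KO cells, a difference of 0.76 ± 0.11 (limma, adjusted p = 0.000508). Rps3, which lies at the mRNA entry of the small subunit, was read at 2039.5 and 2397 CPM on stiff and 1423 and 1479 on soft (0.61 ± 0.11, limma, adjusted p = 0.00181). These genes share few windows with others, 18.4% for Rps27l, 6.69% for Rpl8 and 1.35% for Rps3. Of the 12 members with under 20% shared windows, 6 were higher on stiff and none was lower by limma, with a median of 0.32. At an unadjusted p under 0.05 the 12 held 7 higher and 1 lower, edgeR called 7 and 0, and DESeq2 7 and 1.

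WT cells were compared in the same way. On stiff gels 10 of 81 genes were higher and 5 lower than on soft gels, below the 22.1% and 26.3% called over all genes. The median was 0.02 against -0.02 for all genes. Library values did not overlap for 25 genes that were higher and 16 that were lower, against 35.7% and 39.6%. The split depended on scaling, with 11 higher and 1 lower after median centring and 16 and 13 after quantile normalization. Leaving out a library moved the higher calls to 5, without the second WT stiff or the first WT soft library, and to 6, without the second WT soft library. The lower calls fell to 1 without the first WT stiff or the first WT soft library and to 2 without either Cav1KO soft library, and rose to 8 without the second WT stiff library.

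The 10 genes that rose in WT cells included Rpl27, Rps27l, Rpl7l1, Rpl8, Rpl18, Rpl29 and Rpl4. All 10 were also among the 45 that rose in Cav1KO cells, so the shared genes were 10 of 10 of the WT list and 10 of 45 of the Cav1KO list. The 2 comparisons have no library in common, but the same fit estimated the spread of each gene from all 8 libraries. The 2 sets of calls are therefore not independent. The share of all tested genes called in both comparisons is not given here. Rpl27 again differed most, with 284 and 307 CPM on stiff and 127 and 124 CPM on soft (1.23 ± 0.07, limma, adjusted p = 3.16e-05). Summed with Rpl27-ps3, however, its difference was 0.32 and no longer passed (limma, adjusted p = 0.0683). Rps27l was read at 186 and 217 CPM on stiff and 143 and 142 on soft (0.49 ± 0.10, limma, adjusted p = 0.00366). Rpl8, at 3022 and 3496 CPM against 2443 and 2483, differed by 0.40 ± 0.11 (limma, adjusted p = 0.0151), and this call was lost without the second WT stiff library (limma, adjusted p = 0.0901) or without either WT soft library.

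The 5 genes that were lower on stiff gels in WT cells were Rpl39, Rps20, Rpl22, Rps28 and Rpl27a. Rpl39 encodes a very small protein that lines the exit tunnel, and it was read at 529 and 581 CPM on stiff and at 776 and 717 CPM on soft (-0.43 ± 0.09, limma, adjusted p = 0.00473). Its 4 WT libraries did not overlap, and the call held when any library was left out. In Cav1KO cells the same gene stood at 488 and 526 CPM on stiff and 631 and 562 on soft (-0.23 ± 0.09, limma, adjusted p = 0.0533). The calls of the other 4 genes were lost when a WT library was left out, for example at adjusted p = 0.229 for Rps20 without the first WT soft library in limma. Rpl27a also lost its call when summed with its copies (-0.06, limma, adjusted p = 0.666).

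**Figure D2:**
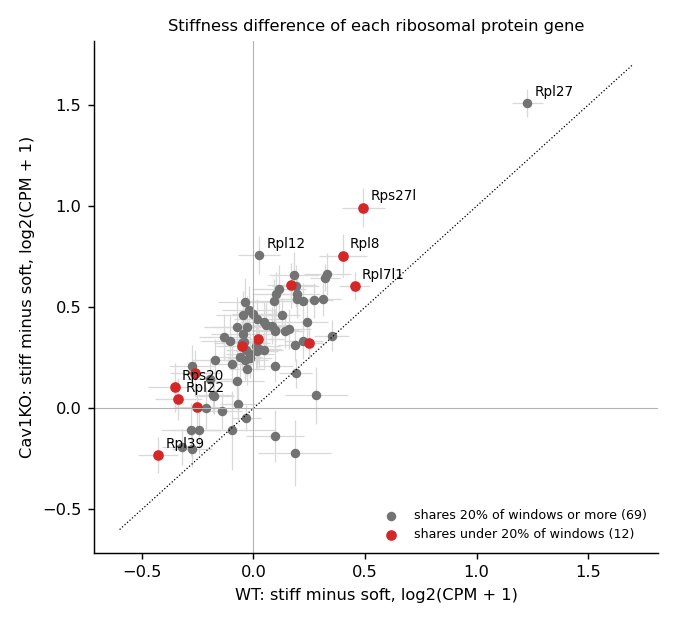
Difference between stiff and soft gels in log2(CPM + 1) for each of the 81 genes, in WT cells (x axis) and Cav1KO cells (y axis). Lines through the points are standard errors, the dotted line marks equal differences, and red points are the 12 genes with under 20% shared windows. In 75 of the 81 genes the point lies above the dotted line.

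Whether stiffness acted differently in the genotypes was tested with an interaction term. The interaction, the signed WT difference minus the Cav1KO difference, was negative in 75 of 81 genes. Its median was -0.31 against -0.07 for all genes. A negative value need not mean a smaller effect in WT cells, since genes such as Rpl39 fell more on stiff gels in WT cells. The share of negative interactions over all genes is not given here. Single genes rarely passed. By limma 0 genes were positive and 1 was negative past the threshold, where 4.47% and 6% of all genes were. At an unadjusted p under 0.05 there were 0 positive and 33 negative genes, edgeR called 0 and 1, and DESeq2 1 and 12. Without the first Cav1KO stiff library 28 negative interactions passed, without the second WT stiff library 3, and without the first WT stiff library, either WT soft library or either Cav1KO soft library none did. The median was -0.16 under quantile normalization. Among the 225 other abundant genes the median interaction was -0.22, and among the 1174 other short genes it was -0.23.

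Rpl12 was the gene with a passing interaction. Its protein belongs to the base of the stalk. In WT cells it was read at 41.8 and 47.0 CPM on stiff and at 44.6 and 42.5 CPM on soft, values that overlap. In Cav1KO cells it was read at 52.4 and 53.2 CPM on stiff and at 29.3 and 32.5 CPM on soft, values that do not. The interaction was -0.73 ± 0.13 (limma, adjusted p = 0.0208). Summed with its abundant copy Gm10275 it was -0.55 and did not pass (limma, adjusted p = 0.0681).

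Genotype was compared on each substrate to ask what loss of caveolin-1 changes. On soft gels 5 of 81 genes were higher and 52 lower in Cav1KO than in WT cells, where 24.1% and 29.9% of all genes were called. The median was -0.39 against -0.03 for all genes. Lower calls fell on 26 of 48 large-subunit genes. They also fell on 26 of 33 small-subunit genes, and all 33, Rps3a2 and Rps3a3 among them, had a negative difference. The share of negative differences over all genes is not given here, and members moved together between libraries. Library values did not overlap for 8 genes that were higher and 68 that were lower, against 38.1% and 43% of all genes. Left without the first WT soft library, the fit called 32 lower, and without the first Cav1KO soft library 34. Under quantile normalization the median was -0.23.

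Of the 225 other abundant genes 42 were higher and 101 lower in the same comparison, with a median of -0.19. Among the 1174 other short genes 212 were higher and 332 lower, with a median of -0.08. Whether these sets differ from the ribosomal protein genes was not tested. Of the 12 members with under 20% shared windows 7 were lower and none was higher, by limma, edgeR and DESeq2 alike, and no member of the 12 was higher at an unadjusted p under 0.05. This comparison uses the same Cav1KO soft libraries as the stiffness comparison in Cav1KO cells, so the 2 sets of calls are not independent. Over the 4 groups, the mean level was lowest in Cav1KO soft for 61 of the 81 genes. This count was not made over all tested genes, so it has no background to be read against.

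On stiff gels the 2 genotypes were closer for most members. In Cav1KO cells 11 genes were higher and 18 lower than in WT cells, where 25% and 26.6% of all genes were called, and the median was -0.06 against -0.03. After median centring the split was 12 higher and 13 lower. Library values did not overlap for 15 higher and 22 lower genes, against 35.5% and 37.2%. The higher calls fell to 4 without the first WT stiff library and to 5 without the second Cav1KO stiff library. The 5 genes that were higher in Cav1KO on soft gels (Rpl34, Rpl22l1, Rpl13, Rpl21 and Rpl24) were all among the 11 on stiff gels. All 18 genes that were lower on stiff gels were among the 52 on soft gels.

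**Figure D3:**
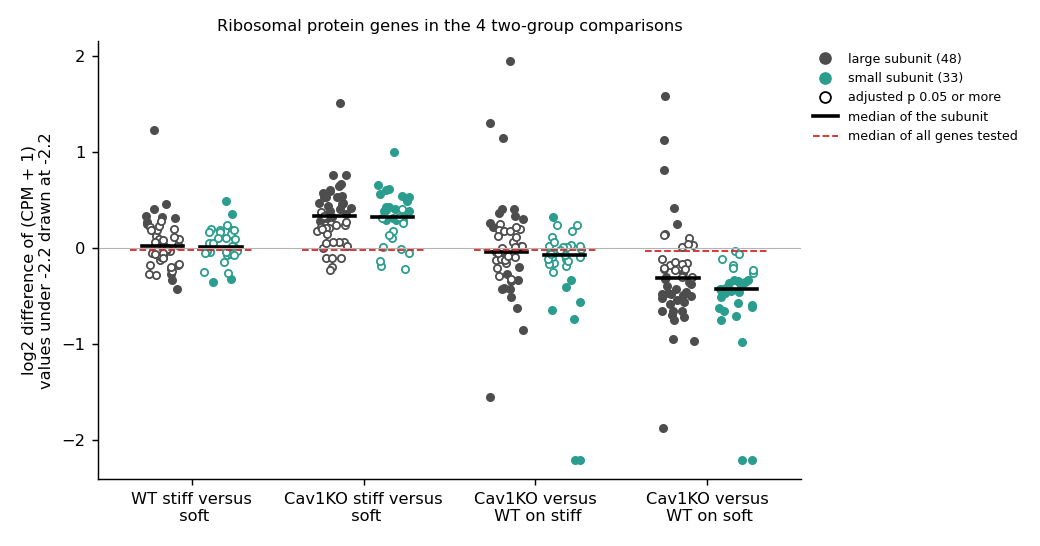
Differences in log2(CPM + 1) (y axis) of the 48 large-subunit genes (gray) and the 33 small-subunit genes (green) in 4 comparisons (x axis). Filled points passed the limma threshold, thick lines are subunit medians, dashed lines are medians of all tested genes, and Rps3a2 and Rps3a3 are drawn at the lower edge in the genotype comparisons. All small-subunit points lie below 0 in the comparison on soft gels.

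A few members differed between genotypes far more than the rest. Rpl34 encodes a large-subunit protein and lies on chr3:130726831-130730398 (GRCm38, minus strand, ENSMUSG00000062006). It was read at 364 and 418 CPM in WT stiff, 395 and 356 in WT soft, 1369 and 1645 in Cav1KO stiff and 1096 and 1159 in Cav1KO soft. All Cav1KO libraries lay above all WT libraries, and the difference was 1.94 ± 0.11 on stiff (limma, adjusted p = 2.41e-06) and 1.58 ± 0.11 on soft gels (limma, adjusted p = 7.51e-06). Its copy Rpl34-ps1 ran the other way, at 437 to 549.6 CPM in WT and 194 to 272 CPM in Cav1KO libraries. Summed, Rpl34 was higher in Cav1KO by 1.01 on stiff and 0.58 on soft gels, and both passed (limma, adjusted p = 0.000187 and 0.00356).

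Rpl13, a large-subunit gene on chr8:123102350-123105244, was read at 917 and 976 CPM in WT stiff, 869 and 863 in WT soft, 1997 and 2179 in Cav1KO stiff and 1467 and 1562 in Cav1KO soft. The genotypes did not overlap on either gel, and the differences were 1.14 ± 0.08 and 0.80 ± 0.08 (limma, adjusted p = 9.09e-06 and 6.65e-05). They were 1.23 and 0.79 with its copy Gm12918 added. Rpl21, another large-subunit gene, was read at 183 to 218 CPM in WT and 235 to 278 CPM in Cav1KO libraries, with differences of 0.40 on stiff and 0.42 on soft gels that both passed (limma, adjusted p = 0.002 and 0.00149).

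Rpl29 differed in the other direction. Its product is a small large-subunit protein, and its gene lies on chr9:106429454-106431568. It was read at 459.7 and 482 CPM in WT stiff, 367 and 386 in WT soft, 158 and 162 in Cav1KO stiff and 104 and 100.1 in Cav1KO soft. The differences were -1.55 ± 0.07 and -1.88 ± 0.07 (limma, adjusted p = 4.45e-07 and 1.38e-07). With its listed copies added they were -0.45 and -0.49 and still passed (limma, adjusted p = 0.000935 and 0.000537). Within each genotype Rpl29 was also higher on stiff than on soft gels, by 0.32 in WT and 0.65 in Cav1KO cells (limma, adjusted p = 0.00441 and 9.18e-05). With copies added, these stiffness differences were 0.20 and 0.24 (limma, adjusted p = 0.0436 and 0.0188).

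**Figure D4:**
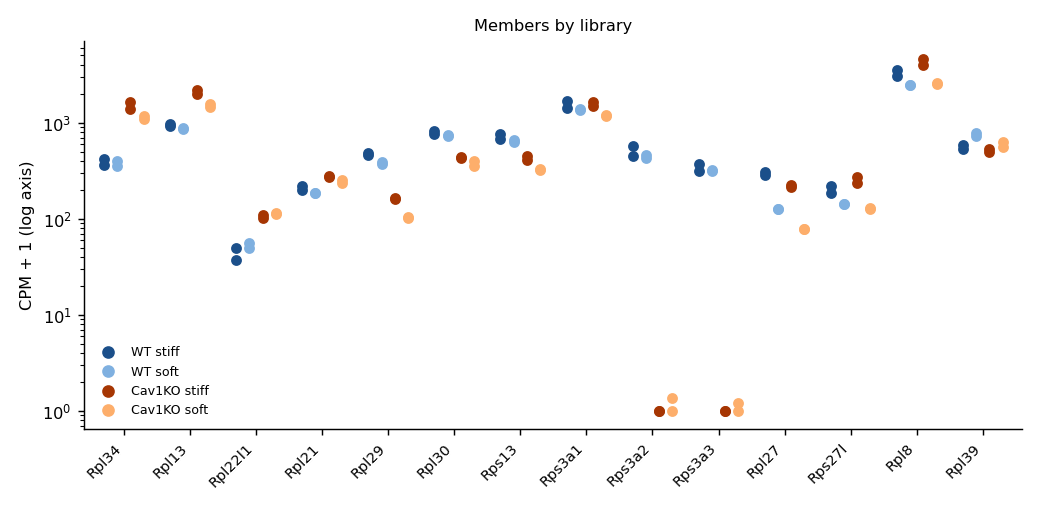
CPM + 1 on a log axis (y axis) of 14 ribosomal protein genes (x axis) in each of the 8 libraries, colored by group. Rpl34, Rpl13 and Rpl22l1 are higher and Rpl29 lower in all Cav1KO libraries, and Rps3a2 and Rps3a3 lie at or near 0 in Cav1KO libraries.

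Rps3a2 and Rps3a3 were the extreme case. Both are single-exon processed pseudogenes of Rps3a1, which encodes a small-subunit protein and lies on chr3:86137940-86142702. Rps3a2 (chr14:88123017-88123808) was read at 453, 570.5, 462 and 432 CPM in the WT libraries. It had 0 and 0 reads in Cav1KO stiff and 0 and 7 reads in Cav1KO soft. Rps3a3 (chr13:108670603-108671397) was read at 314, 371, 321 and 316 CPM in WT libraries, with 0 and 0 reads in Cav1KO stiff and 4 and 0 reads in Cav1KO soft. Against a floor of 3 reads per library, Rps3a2 was at least 3002-fold and Rps3a3 at least 2008-fold lower in Cav1KO than in WT cells on stiff gels. The floor covers counting error only.

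As a single row Rps3a1 passed neither genotype test. On stiff gels it was read at 1425 and 1659.9 CPM in WT and at 1472 and 1651 in Cav1KO cells (0.02 ± 0.10, limma, adjusted p = 0.884). On soft gels it was read at 1356 and 1395 CPM in WT and 1177 and 1196 in Cav1KO cells (-0.21 ± 0.10, limma, adjusted p = 0.0964). Summed with Rps3a2 and Rps3a3, it was lower in Cav1KO cells by -0.61 on stiff and -0.85 on soft gels (limma, adjusted p = 0.00128 and 0.000187). Both copies are almost the same sequence as the parent mRNA. Over 792 aligned bases Rps3a2 differed from Rps3a1 at 4, an identity of 99.5%, and over 795 aligned bases Rps3a3 differed at 9, an identity of 98.9%. A stretch of 30 bases from the annotated transcripts (GENCODE M21, GRCm38), shorter than a read, shows the few bases by which a read can be assigned, with capitals at positions where the 3 sequences are not the same.
Rps3a1, bases 772 to 801: aaaagtAaaaatgctgaagaaAcccaagtT
Rps3a2, bases 639 to 668: aaaagtTaaaatgctgaagaaAcccaagtC
Rps3a3, bases 639 to 668: aaaagtAaaaatgctgaagaaGcccaagtT
Whether the WT reads at these rows come from the copies or from Rps3a1 transcripts was not tested.

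Some copies outside the name rule had the opposite split. Gm8730 and Gm9625, processed pseudogenes of Rplp0, were read at 0.552 to 1.02 and 0.114 to 0.363 CPM in WT libraries, and at 477 to 689 and 82.9 to 108 CPM in Cav1KO libraries. Rps13-ps1 was read at 0 to 5.59 CPM in WT and 195 to 331 CPM in Cav1KO libraries. Gm12191, a copy of Rpl30, was read at 62.0 to 122 CPM in WT and 423 to 556 CPM in Cav1KO libraries. For these 4 rows the genotypes did not overlap. Other copies were lower in Cav1KO cells, such as Rpl34-ps1 above, or overlapped, such as Rps13-ps2, which was read at 80.5 to 116 CPM in WT libraries, 29.1 and 97.7 CPM in Cav1KO stiff and 0 and 9.72 CPM in Cav1KO soft.

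Rps13 and Rpl30 were themselves lower in Cav1KO cells, where these copies were higher. Rps13, a small-subunit gene, was read at 667 and 759 CPM in WT stiff, 657 and 632 in WT soft, 445 and 407 in Cav1KO stiff and 321 and 331 in Cav1KO soft. The genotype difference was -0.74 ± 0.08 on stiff and -0.98 ± 0.08 on soft gels (limma, adjusted p = 0.000147 and 2.61e-05), and with copies summed it was -0.05 and -0.49 (limma, adjusted p = 0.706 and 0.00409). Rpl30, read at 754 and 809.8, 734 and 727, 424 and 441, and 397 and 352 CPM in the same order, differed by -0.85 ± 0.08 and -0.97 ± 0.08 (limma, adjusted p = 4.82e-05 and 2.18e-05). With Gm12191 added the differences were 0.13 and -0.06, and neither passed (limma, adjusted p = 0.250 and 0.586), so the direction on stiff gels reversed.

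**Figure D5:**
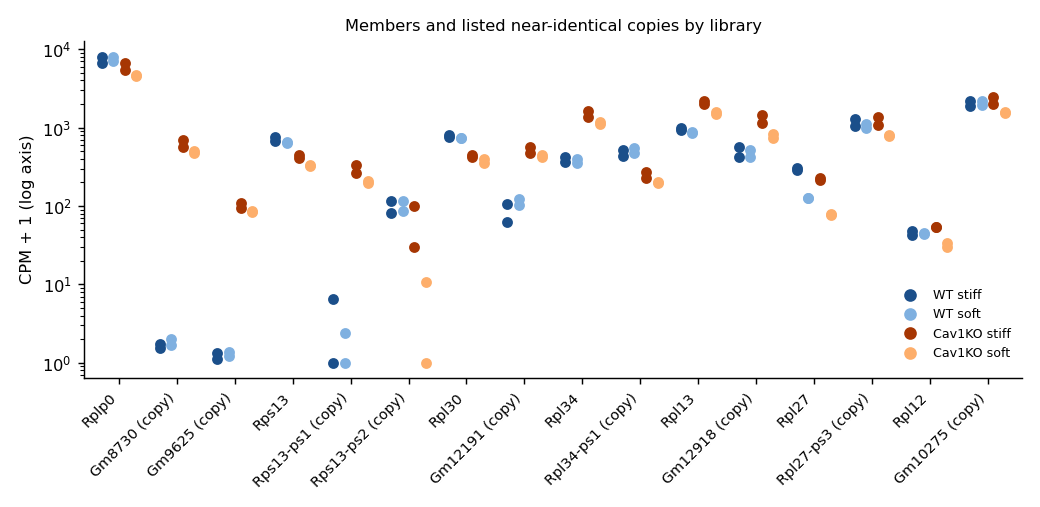
CPM + 1 on a log axis (y axis) of 7 members and their listed near-identical copies (x axis) in each library, colored by group. Gm8730, Gm9625 and Rps13-ps1 lie below 6 CPM in WT and above 80 CPM in Cav1KO libraries, and Rpl27-ps3 and Gm10275 hold more signal than their parents in all 8 libraries.

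The 3 stalk genes and Rpsa passed no test between gels in WT cells. Rplp0 was read at 6665 and 7943 CPM in WT stiff, 8003 and 7082 in WT soft, 5357 and 6565 in Cav1KO stiff and 4473 and 4709 in Cav1KO soft. It was lower in Cav1KO than in WT cells on soft gels by -0.71 ± 0.14 (limma, adjusted p = 0.00296), or by -0.54 with copies summed (limma, adjusted p = 0.0121). Rplp2 was lower by -0.40 ± 0.10 (limma, adjusted p = 0.0113), a call lost without the first WT soft or either Cav1KO soft library, while Rplp1 did not pass (-0.22 ± 0.13, limma, adjusted p = 0.173). Rpsa, the laminin receptor precursor and a small-subunit protein, was read at 2988 and 3634 CPM in Cav1KO stiff and at 2334 and 2243 CPM in Cav1KO soft (0.53 ± 0.12, limma, adjusted p = 0.00537). In WT cells it stood at 3212 and 3678 CPM on stiff and 3618 and 3444 CPM on soft, which overlap.

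Paralog pairs allow a comparison inside the family. Rpl22l1, the paralog of Rpl22 that can take its place in the ribosome, was read at 36.2 and 49.2 CPM in WT stiff, 54.5 and 48.7 in WT soft, 102 and 108 in Cav1KO stiff and 115 and 111 in Cav1KO soft. The genotypes did not overlap, and it was higher in Cav1KO cells by 1.29 ± 0.13 on stiff and 1.12 ± 0.13 on soft gels (limma, adjusted p = 7.51e-05 and 0.000162). It has no listed copy, but 62.9% of its windows are shared with 4 annotated genes that are not among the listed ones. Rpl22 stood at 581 and 653, 831 and 729, 531 and 621, and 545 and 567 CPM in the same order, lower in Cav1KO on soft gels by -0.48 ± 0.10 (limma, adjusted p = 0.00451). Rpl22l1 thus amounted to 6.24% to 7.53% of Rpl22 in WT and 17.4% to 21.1% in Cav1KO libraries.

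Rpl7l1, a nucleolar relative of Rpl7, was read at 272 and 294 CPM in WT stiff, 204 and 209 in WT soft, 240.2 and 251 in Cav1KO stiff and 159.7 and 163 in Cav1KO soft. It was higher on stiff gels in both genotypes, by 0.45 ± 0.07 and 0.60 ± 0.07 (limma, adjusted p = 0.00089 and 0.000146). Rpl7 did not pass in either (limma, adjusted p = 0.920 and 0.0602). Rpl10, Rpl10a, Rpl3 and Rpl7 passed in none of the 5 tests as single rows. Rpl10 stood at 466 and 286 CPM in the Cav1KO soft libraries, beside 1268 and 1442 CPM of its copy Rpl10-ps3, and summed with that copy it was lower in Cav1KO than in WT cells on soft gels by -0.37 (limma, adjusted p = 0.0101). Rps4x, the X-linked S4 gene, was lower in Cav1KO cells by -0.33 on stiff (limma, adjusted p = 0.0138, and 0.0565 after median centring) and by -0.46 on soft gels (limma, adjusted p = 0.00262).

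A few further members are known for other roles or for disease, and their values follow. They were not tested as a group. Rps6, the substrate of S6 kinases, was lower in Cav1KO by -0.57 ± 0.09 on stiff and -0.75 ± 0.09 on soft gels (limma, adjusted p = 0.000988 and 0.000179), with 1112 and 1283 CPM in WT stiff, 1013 and 1008 in WT soft, 769 and 845 in Cav1KO stiff and 582 and 615 in Cav1KO soft. Rpl38, known for its part in translation of Hox mRNAs, was lower by -0.43 ± 0.08 and -0.66 ± 0.08 (limma, adjusted p = 0.00224 and 0.000197), with WT libraries at 515 to 580.4 CPM and Cav1KO libraries at 352 to 419 CPM. Rpl11, which with Rpl5 binds MDM2, was lower on soft gels by -0.58 ± 0.09 (limma, adjusted p = 0.000738). Its difference on stiff gels, -0.27, lost its call with copies summed and without any of 4 libraries. Rpl5 was listed at 38.7 to 53.9 CPM and passed no test, while summed with its copies it was higher on stiff gels in Cav1KO cells by 0.52 (limma, adjusted p = 0.00213) and lower in Cav1KO than in WT cells on soft gels by -0.45 (limma, adjusted p = 0.00486). As a single row Rpl5 had a difference of 0.13 in that comparison, opposite in sign (limma, adjusted p = 0.449). Rps19, a Diamond-Blackfan anemia gene, was lower in Cav1KO on soft gels by -0.35 ± 0.11 (limma, adjusted p = 0.0234), a call lost without the first WT soft or either Cav1KO soft library.

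The ratio of large-subunit to small-subunit signal differed by genotype. The summed CPM of the 48 large-subunit genes was 1.27 to 1.29 times that of the 33 small-subunit genes in the 4 WT libraries and 1.40 to 1.42 times in the 4 Cav1KO libraries. Without Rpl13, Rpl34, Rps3a2 and Rps3a3, chosen after their values were seen, it was 1.26 to 1.28 in WT and 1.31 to 1.33 in Cav1KO libraries. No test was run on this ratio.

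Other genes of the ribosome and its supply were read from lists. On soft gels all 5 listed ribosome components outside the name rule (among them Fau, Gnb2l1 and Rps27rt) were lower in Cav1KO than in WT cells. The differences ran from -0.28 for Fau to -0.98 for Rps27rt. EdgeR called 5 lower and DESeq2 4, and 29.9% of all genes were lower by limma. On stiff gels 3, Fau and Gnb2l1 among them, were higher in Cav1KO cells, against 27.9% of all genes. Mitochondrial ribosomal protein genes serve a separate ribosome. On stiff gels 45 of 79 were higher in WT and 71 of 79 in Cav1KO cells, against 22.1% and 27.9% of all genes. The medians of the 79 were 0.30 and 0.60. None was lower by limma, with 3 lower in WT and 0 in Cav1KO cells at an unadjusted p under 0.05, 0 and 0 by edgeR, and 1 and 0 by DESeq2. In the genotype comparison on soft gels 9 of the 79 were higher and 24 lower, with a median of -0.16. Of all genes 24.1% were called higher and 29.9% lower in that comparison, and whether the shares differ was not tested.

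Ribosome biogenesis factors, which process and fold ribosomal RNA in the nucleolus, differed between gels in both genotypes. On stiff gels 62 of 66 were higher in WT and 50 of 66 in Cav1KO cells, with medians of 0.84 and 0.78, and none was lower by limma, at an unadjusted p under 0.05, by edgeR or by DESeq2. The largest rise was 1.75 for Rrp12 in WT (limma, adjusted p = 4.73e-05) and 1.63 for Nhp2 in Cav1KO cells (limma, adjusted p = 1.68e-05). Within WT cells, then, 93.9% of these factors, 12.3% of the ribosomal protein genes and 22.1% of all genes were called higher on stiff gels. Whether these shares differ was not tested. RNA polymerase I genes, which transcribe ribosomal RNA, were higher for 8 and lower for 1 (Taf1d, -0.45) of 15 in WT and higher for 7 and lower for none in Cav1KO cells, where no gene was lower at an unadjusted p under 0.05, by edgeR or by DESeq2. Over all genes 22.1% were called higher and 26.3% lower on stiff gels in WT, and 27.9% and 28.2% in Cav1KO cells.

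Translation factors whose mRNAs also carry a TOP tract were mixed. Of 21, 9 were higher and 3 (Eef1a1, Eif3f and Tpt1) lower on stiff gels in WT, and 11 were higher and 2 (Eif3f and Eif4b) lower in Cav1KO cells, from 0.86 for Eif2s3x to -0.51 for Eif3f. The shares called were 42.9% higher and 14.3% lower in WT and 52.4% and 9.52% in Cav1KO cells, where all genes had 22.1% and 26.3%, and 27.9% and 28.2%. On soft gels 4 were higher and 8 lower in Cav1KO than in WT cells, with a median of -0.14, or 19.0% and 38.1% against 24.1% and 29.9% of all genes. Of 21 genes of the mTOR, LARP1 and MYC circuits, 7 were higher and 4 (Deptor, Mxd4, Mxi1 and Mnt) lower on stiff gels in WT, and 7 and 6 in Cav1KO cells. These shares, 33.3% and 19.0% in WT and 33.3% and 28.6% in Cav1KO cells, lay near those of all genes. Mxd4, which encodes a MYC antagonist, fell most in both, by -1.73 and -2.09 (limma, adjusted p = 2.56e-05 and 6.88e-06). Larp1 was higher on stiff gels in WT cells by 1.2 ± 0.20 (limma, adjusted p = 0.00155).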

How the data were processed

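The authors deposited a table of TMM-normalized CPM per gene, a normalized read signal, for 8 libraries (NEBNext Ultra, poly(A), 60-base single reads). The submitters' processing notes name CASAVA 1.8.2, cutadapt, RSEM 1.2.3 and GRCm38, without their order. How RSEM's assignment of shared reads entered the table is not given in the sources used here. The kit does not mark strand.

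The members and gene lists were chosen with earlier results of these data known. The 12494 genes that reached 1 CPM in 2 or more libraries were fitted as log2(CPM + 1) with limma 3.58.1 (R 4.3.3), with a mean-variance trend and the 4 group means, which left 4 residual degrees of freedom. P-values were two-sided and Benjamini-Hochberg adjusted over all tested genes, with a threshold of 0.05, and the fold changes understate changes of low genes. Whole reads were recovered from the deposited values for edgeR 4.0.16 and DESeq2 1.42.0. The code was first checked on generated data with known differences. Other settings were median centring, quantile normalization, pseudocounts of 0.5 and 5, other filters, no trend, a replicate block, each library left out, and copies summed. Copies summed with a member were listed genes sharing at least 10% of its 60-base windows exactly, on either strand, in GENCODE M21 transcripts. A second setting summed only the 31 rows with -ps names into 23 members. All 81 members matched GENCODE by identifier.

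Named genes were the 4 largest called rises and falls of each comparison with a mean of at least 5 CPM, the stalk genes and Rpsa, paralog pairs, Rps6, Rpl5, Rpl11, Rps19 and Rpl38, and the 3 highest and lowest per kb. Rpl18, Rpl24, Rpl4, Rpl32, Rps3, Rps3a1 and the copies were named after their values were seen. A few genes are counted but not reported by name here.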

Additional observations from a re-analysis of the deposited data

Results flagged for a closer look

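Rpl12 had a stiffness difference that differed between genotypes by a test of the difference itself. The interaction was -0.73 on the log2(CPM + 1) scale (limma, adjusted p = 0.0208), with a difference between stiff and soft gels of 0.03 in WT and 0.76 in Cav1KO cells. Over all alternative settings the adjusted p of this interaction ranged from 0.00492 to 0.110, and it was above the threshold without the first WT stiff library, either WT soft library or either Cav1KO soft library, and with copies summed. The listed copy Gm10275 held 1534 to 2425 CPM beside 29.3 to 53.2 CPM for Rpl12, and the part of the copy in the result was not tested. Among 81 tested members, no other interaction passed by limma.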

How the results depend on the processing

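Of the summary values 261 stayed within range and 44 moved, and of single-gene results 3153 kept their direction and side of the threshold, 77 changed sign or became 0 with no call in either fit, 81 lost the call, 76 gained one and 3 reversed. In WT stiffness, median centring left 1 gene lower, the fit without a mean-variance trend 2, and quantile normalization 16 higher and 13 lower. In Cav1KO stiffness, genes called lower were 2 by DESeq2, 8 after quantile normalization and 1 with a filter of at least 5 CPM, and the quantile median was 0.14. For the interaction, DESeq2 called 1 positive and 12 negative genes, quantile normalization 7 negative with a median of -0.16, a pseudocount of 5 gave 3, the replicate block 2 and summed copies 0. On stiff gels the genotype fit without trend called 7 higher, and Rpl30 reversed to 0.13 with copies summed. With copies summed, Rpl27a in Cav1KO stiffness also went from -0.20 to 0.30 and Rpl5 on soft gels from 0.13 to -0.45, each called only when summed. On soft gels quantile normalization called 8 higher, with a median of -0.23. The cause was not tested.

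Leaving out 1 library at a time gave 5 to 12 higher and 1 to 8 lower genes for WT stiffness, with medians of -0.08 to 0.11. It gave 27 to 56 higher and 0 to 1 lower for Cav1KO stiffness, with medians of 0.22 to 0.41, and 0 positive and 0 to 28 negative interactions, with medians of -0.40 to -0.21. It gave 4 to 13 higher and 13 to 19 lower for genotype on stiff gels, with medians of -0.16 to 0.054, and 4 to 5 higher and 32 to 54 lower on soft gels, with medians of -0.43 to -0.37. A group left with 1 library was assumed to vary like the others. The ratio of summed levels, Cav1KO soft over WT soft, stayed between 0.744 and 0.796.

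The labels tie the replicate numbers to no shared day or batch. Deviations of same-numbered libraries correlated across genes at -0.37 to 0.42 over the 6 pairs of groups. The lowest value was that of WT stiff with WT soft and the highest that of WT stiff with Cav1KO stiff. In both stiff groups most members were also higher in the second library. Whether same-numbered stiff libraries shared a day or batch was not tested. With the replicate block the calls were 11 higher and 6 lower for WT stiffness, 47 and 0 for Cav1KO stiffness, 11 and 18 for genotype on stiff and 5 and 52 on soft gels. With copies summed they were 8 and 4, 47 and 0, 10 and 13, and 4 and 54. With 2 libraries per group, differences within the spread of the libraries cannot be called.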
